A study of Mus musculus with 16 samples.

Results

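Neutrophils are short-lived white blood cells that store antimicrobial proteins in granules, and 9 genes that encode such proteins or are abundant in these cells were followed here: S100a8, S100a9, Ltf, Ngp, Camp, Elane, Mpo, Prtn3 and Retnlg. Every probe annotated to one of these symbols was used, which gave 12 of the 25697 probes on the array, or 9 of 16593 named genes. Mpo had 3 probes, Ltf had 2 and the others had 1 each. Expression was measured on Illumina MouseRef-8 bead arrays in liver and in eWAT, the epididymal white fat that lies against the epididymis. The mice were wild-type or Fgf1-/- (Fgf1 null), a label for loss of the gene of fibroblast growth factor 1, and their diet for 16 weeks was either chow or high in fat (HFD). The 8 groups were wild-type chow, wild-type HFD, Fgf1 null chow and Fgf1 null HFD, each in liver and in eWAT, from mice 24 weeks old. The labels name the 2 arrays of each group as technical replicates. A group is therefore 1 RNA sample, and whether that RNA came from 1 mouse or a pool is not stated.

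Neutrophils form in bone marrow and fill their granules in a fixed order as they mature. Mpo, Elane and Prtn3 encode the peroxidase and serine proteases of the primary granules, which are transcribed early, in promyelocytes. Ltf, Camp and Ngp encode proteins of the secondary granules, made later, in myelocytes. S100a8 and S100a9 encode the subunits of calprotectin, an abundant protein of the neutrophil cytosol that is also made by monocytes, and Retnlg encodes a secreted resistin-like protein. A healthy liver holds few neutrophils and they enter it in inflammation. In a bulk RNA sample, fewer cells of a type and less RNA per cell cannot be told apart.

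The promoters of the 5 members that were called higher in both liver comparisons of the Fgf1 null HFD sample and that belong to the cytosol or the secondary granules are shown to let their sequence be compared. They are the 150 bases before the gene start, taken from RefSeq at build GRCm38.p6, while the array files name no build. Capitals mark CCAAT or TTGCNNAA on either strand, the second being the consensus site of C/EBP factors, which act in granulocyte development. The S100a8 stretch lies at chr3:90668921-90669070 on the plus strand and that of S100a9 at chr3:90695722-90695871 on the minus strand. The Ltf stretch is chr9:111019142-111019291 (plus), that of Ngp chr9:110419658-110419807 (plus) and that of Camp chr9:109849457-109849606 (minus).
S100a8: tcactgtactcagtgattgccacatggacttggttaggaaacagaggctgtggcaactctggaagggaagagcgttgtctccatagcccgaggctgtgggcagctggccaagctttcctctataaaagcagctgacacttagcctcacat
S100a9: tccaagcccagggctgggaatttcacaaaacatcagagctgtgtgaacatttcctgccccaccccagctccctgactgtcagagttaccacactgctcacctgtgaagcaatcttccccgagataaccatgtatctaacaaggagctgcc
Ltf: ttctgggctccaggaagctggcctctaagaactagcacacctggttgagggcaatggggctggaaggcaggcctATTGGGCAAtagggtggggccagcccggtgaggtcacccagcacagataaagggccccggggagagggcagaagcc
Ngp: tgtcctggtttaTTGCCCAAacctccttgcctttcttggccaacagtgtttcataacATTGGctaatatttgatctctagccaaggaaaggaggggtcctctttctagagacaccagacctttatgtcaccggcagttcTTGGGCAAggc
Camp: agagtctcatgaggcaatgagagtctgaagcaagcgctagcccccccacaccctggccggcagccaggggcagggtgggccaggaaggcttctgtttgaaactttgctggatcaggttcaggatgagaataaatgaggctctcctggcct
In Ltf the 2 motifs overlap in the capitals, and Ngp held 2 copies of TTGCNNAA and 1 of CCAAT. Over all 9 members, 2 had TTGCNNAA in this window, against 5.46% of 32851 promoters in the table, and 3 had CCAAT, against 24.5%. GGAA, the core of the site bound by ETS factors, was present in 9 of 9 members and in 80.8% of all promoters, and CANNTG in 4 of 9 and in 47.7%. Over the 250 bases before the start, TTGCNNAA was in 4 of 9 members against 9.56% of promoters and CCAAT in 4 of 9 against 33.9%. A match of letters describes the sequence only.

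In the liver, transcripts of the neutrophil cytosol and secondary granules were highest in the Fgf1 null HFD sample. The raw S100a8 intensity was 156 and 182 for wild-type chow, 168 and 167 for wild-type HFD, 253 and 295 for Fgf1 null chow, and 1394 and 1694 for Fgf1 null HFD. The Fgf1 null HFD arrays stood apart from all others, and the Fgf1 null chow arrays lay above both wild-type groups. For S100a9 the corresponding pairs were 111 and 123, 128 and 120, 142 and 138, and 521 and 575. Both Fgf1 null HFD arrays were again far above the rest, while the other groups spanned 111 to 142. S100a8 and S100a9 were detected, at a detection p under 0.05 against the negative controls, on all 8 liver arrays.

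Ltf, the iron-binding lactotransferrin of secondary granules, was detected in liver only on the 2 Fgf1 null HFD arrays, at 341 and 314. On the other 6 liver arrays it read 82.9 to 113 and was not detected. Ngp, neutrophilic granule protein, read 163 and 157 in Fgf1 null HFD and at most 107 elsewhere, and Camp, the precursor of the antimicrobial peptide CRAMP, read 148 and 136 against at most 98.4. Neither was detected in the other 3 liver groups, so the contrast for these genes is between a dim signal and none.

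Of the primary granule genes, Mpo and Elane were also highest in Fgf1 null HFD, at dim levels, and Prtn3 was not. Mpo, myeloperoxidase, read 142 and 144 in Fgf1 null HFD, 103 and 117 in wild-type HFD, 83.9 and 104 in Fgf1 null chow, and 82.5 and 83.4 in wild-type chow. It was detected on both Fgf1 null HFD arrays and on 1 wild-type HFD array, and the other 2 Mpo probes were detected on no liver array. Elane, neutrophil elastase, was within 115 to 130 in 3 liver groups and at 171 and 170 in Fgf1 null HFD. Prtn3, proteinase 3, was high in both HFD samples, at 316 and 295 in wild-type and 228 and 307 in Fgf1 null, against 107 to 124 on chow. Retnlg was detected in both Fgf1 null livers, at 119 and 132 (chow) and 131 and 138 (HFD), and in neither wild-type liver, where it read 87.8 to 109.

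**Figure D1:**
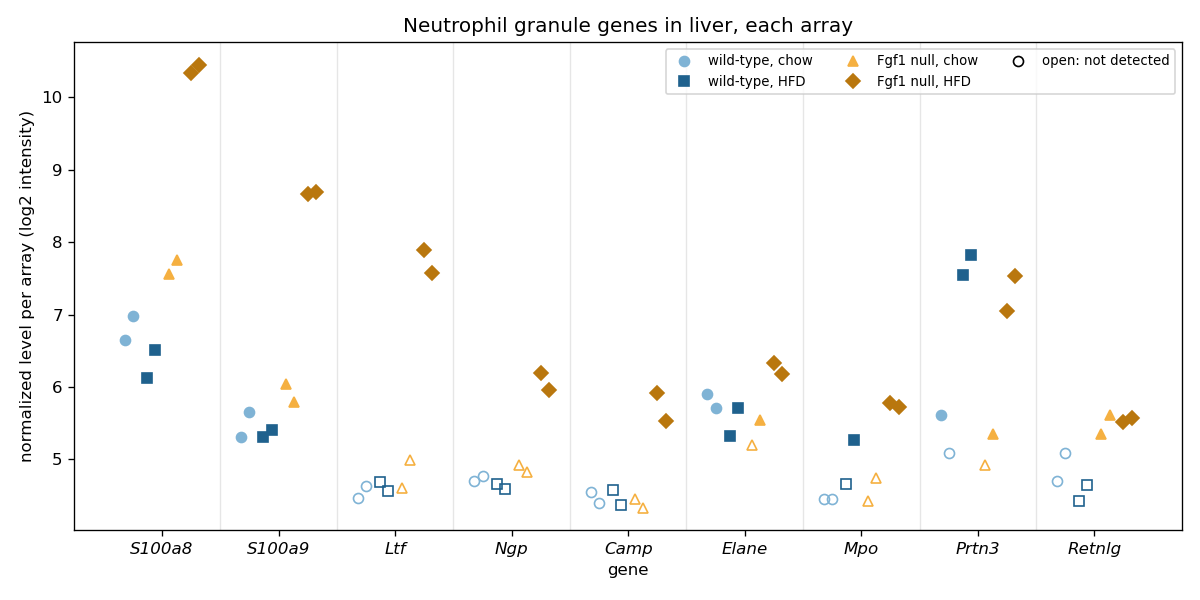
Background-corrected and normalized level of each member (log2 intensity, vertical axis) on every liver array, by gene and group; open symbols were not detected. S100a8, S100a9, Ltf, Ngp and Camp are highest on both Fgf1 null HFD arrays, Prtn3 is high in both HFD groups, and Retnlg is detected in both Fgf1 null livers.

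Genotype on HFD was compared first, as the difference between the Fgf1 null and the wild-type liver sample. S100a8 was higher in Fgf1 null by 4.08 ± 0.18 on the log2 scale (SE from limma, n = 2 arrays per group, adjusted p = 2.7191e-05), or 16.9-fold. S100a9 was higher by 3.33 ± 0.15 (limma adjusted p = 2.8324e-05), or 10.1-fold. The Ltf level was at least 5.94-fold above wild-type, a bound taken against the lowest detected signal of the wild-type arrays. Here and below, a gene is called when the limma p adjusted over all genes is under 0.05 and the change is at least 2-fold. Since both arrays of a group carry the same RNA, a call sets 1 RNA sample against another, and the spread between mice was not measured.

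Of the 9 members 6 were called higher in Fgf1 null HFD liver and 0 lower, beside 3.34% of 8894 tested genes called higher and 1.62% called lower. Ltf, Ngp, Camp and Mpo passed the detection filter only through the Fgf1 null HFD group and so had to differ there. Retnlg passed only through the 2 Fgf1 null groups, so its direction between genotypes was set as well. The count is given as a description. Beside the 3 genes above, Ngp was higher by a fitted 1.45 ± 0.13, Camp by 1.25 ± 0.16 and Retnlg by 1.01 ± 0.17. Their bounds are at least 1.89-fold, 1.48-fold and 1.30-fold, which do not reach 2-fold. Without background correction the calls of Ngp, Camp and Retnlg were lost, at 0.62, 0.64 and 0.50. The Retnlg call was also lost without the first wild-type HFD array (0.87, adjusted p 0.053) and without the second Fgf1 null HFD array (0.96, adjusted p 0.057). Elane (0.73 ± 0.18), Mpo (0.78 ± 0.20) and Prtn3 (-0.39 ± 0.25) were not called, though Mpo passed without the second wild-type HFD array (1.09).

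Within Fgf1 null liver the diets were compared next. On HFD 7 of 9 members were called higher and 0 lower, with 5.88% and 2.70% of all tested genes. For Ltf, Ngp, Camp and Mpo the direction was set by the detection filter, which they passed only through the higher group, so nothing is read from that count. Prtn3 passed only through the 2 HFD groups, and 1 of 2 arrays detected it in each chow liver, so its direction was set as well. S100a8 was higher by 2.74 ± 0.18, S100a9 by 2.77 ± 0.15 and Prtn3 by 2.15 ± 0.25. Ltf was at least 5.61-fold higher, Ngp at least 1.78-fold, Mpo at least 1.42-fold and Camp at least 1.40-fold. Without background correction the calls of Ngp (0.48), Camp (0.74) and Mpo (0.54) were lost. Elane differed by 0.88 ± 0.18, under 2-fold, and was called without the second Fgf1 null chow array, at 1.06. Retnlg differed by 0.06 ± 0.17.

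In wild-type liver the only member called between diets was Prtn3, higher on HFD by 2.33 ± 0.25 (3.24% of tested genes were called higher and 2.48% lower). Since Prtn3 passed the detection filter only through the 2 HFD groups, this direction was set by the filter, and the value is a description. S100a8 was at -0.49 ± 0.18 and S100a9 at -0.13 ± 0.15, neither called. Between genotypes on chow 0 members were called by limma, against 1.00% of tested genes called higher and 0.787% lower. S100a8 was nearest, at 0.85 ± 0.18 with an adjusted p of 0.036, under 2-fold, and it was called without the second wild-type chow array, at 1.01. Retnlg was at 0.59 ± 0.17 there (adjusted p 0.092).

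The difference of the diet effects between the genotypes was called for 6 members in liver, all positive, beside 4.53% of tested genes with a positive and 3.37% with a negative call. S100a8 and S100a9 were detected in all 4 groups. Ltf, Ngp and Camp were detected in Fgf1 null HFD alone, through which they passed the filter, so their values are fitted from 3 groups at background and are descriptions. The HFD effect in Fgf1 null liver exceeded that in wild-type by 3.23 ± 0.25 for S100a8 and 2.90 ± 0.22 for S100a9. The fitted value was 2.85 ± 0.25 for Ltf, 1.32 ± 0.18 for Ngp and 1.33 ± 0.23 for Camp, and for Elane, detected in 3 groups, it was 1.16 ± 0.26. Without background correction those of Ngp, Camp and Elane were under 2-fold, at 0.55, 0.75 and 0.47. Elane lost its call when any of 5 arrays was left out: the first of each group (values 0.95 to 1.09) or the second of Fgf1 null HFD (1.21), with adjusted p of 0.065 to 0.091. Prtn3 showed no called difference of diet effects (-0.18 ± 0.35).

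**Figure D2:**
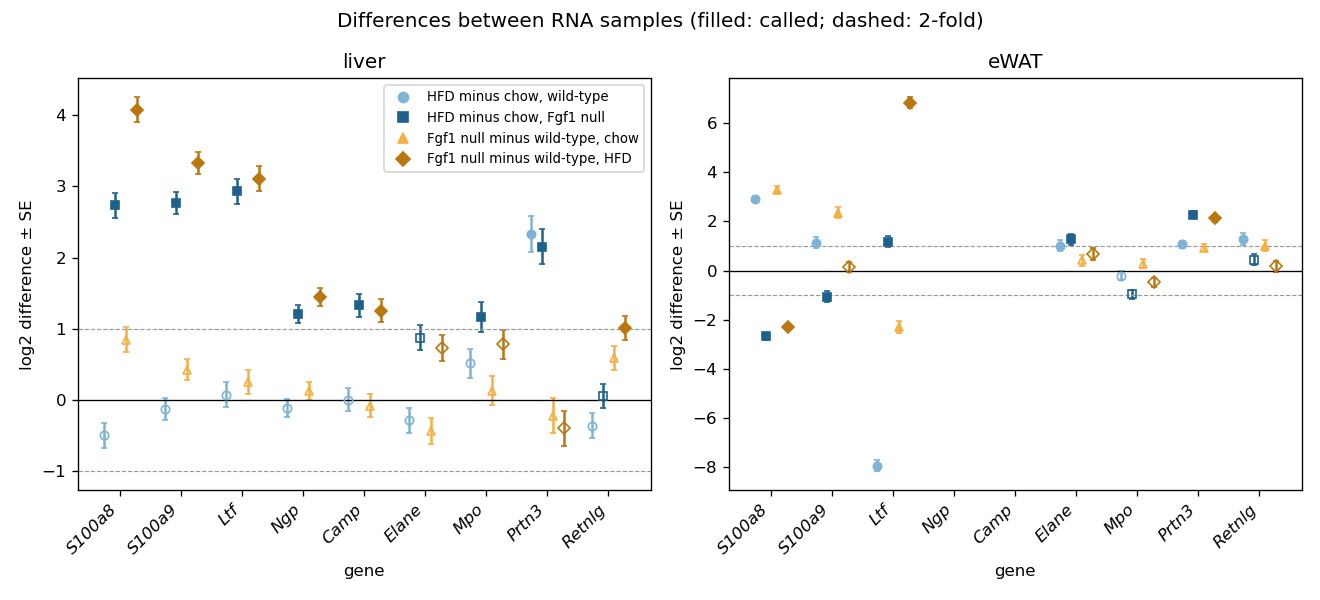
Log2 difference ± SE (vertical axis) of each member in 4 comparisons, in liver (left) and eWAT (right); filled symbols were called and dashed lines mark a 2-fold change. In liver the filled symbols of S100a8, S100a9 and Ltf lie between 2.74 and 4.08, and in eWAT those of Ltf run from -7.95 to 6.84. Ngp and Camp were not tested in eWAT.

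With the RNA sample as the unit no member passed. An additive limma fit of diet and genotype to the 4 averaged liver samples, with 1 residual degree of freedom, called 0 of 8894 genes for either factor. At an unadjusted p under 0.05 it gave 1177 genes for diet (13.2%) and 302 for genotype (3.40%). Its residual is the interaction, which was large for S100a8, S100a9 and Ltf. S100a8 had a genotype effect of 2.46 ± 0.79 (unadjusted p 0.031, adjusted p 0.999) and Prtn3 a diet effect of 2.24 ± 0.20 (adjusted p 0.134). The direction of that Prtn3 effect was set by the detection filter. Every liver result on the Fgf1 null HFD group rests on 1 RNA sample, and leaving that sample out ends the comparison.

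Other genes of the neutrophil were read from lists of granule and cytosol proteins, surface receptors, transcription factors and attractants. Some genes of these lists, and of the lists of other cells below, passed the liver detection filter only through the Fgf1 null HFD group. Their direction was set by that filter, so the list counts in liver are descriptions. Of 23 further granule and cytosol genes on the array 11 were measured in liver, and 6 were called higher and 0 lower in Fgf1 null HFD against wild-type HFD (median 1.33, all genes 0.01). S100a11, a calcium-binding protein of many cells, was higher by 2.56 ± 0.15, the lysozyme Lyz2, shared with macrophages, by 2.35 ± 0.19, the protease inhibitor Slpi by 1.73 ± 0.16 and the oxidase subunit Ncf4 by 1.67 ± 0.22. Mmp8, Fcnb and Padi4, further genes typical of neutrophils, were detected on 0 of 16 arrays.

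Surface receptors were called higher in 5 of 10 measured and lower in 0 (median 0.98). Fpr2, a formyl peptide receptor, rose by 2.29 ± 0.13, and the immunoglobulin receptor Fcgr4 by 1.98 ± 0.14. Cd14 (1.82 ± 0.19) and Selplg (1.52 ± 0.23) are shared with monocytes. Csf3r, the receptor for granulocyte colony-stimulating factor, was not called, at 0.38 ± 0.19, and the chemokine receptor gene Cxcr2 was detected on 0 of 16 arrays. Ly6g, the usual surface marker of mouse neutrophils, was not analysed here.

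Granulocyte transcription factor genes were called in 0 of 5 measured by limma in this comparison (median 0.04). Of 6 measured attractants and growth factors 1 was called, the cytokine Il1b, at 1.37 ± 0.23. Cxcl1, a chemokine that draws neutrophils, was highest in Fgf1 null chow liver, at 2061 and 2392, against 1080 and 1410 in Fgf1 null HFD, and was called lower on HFD in Fgf1 null (-1.10 ± 0.13). Acute phase genes were called higher in 0 and lower in 4 of 15, among them Saa2 at -3.75 ± 0.16.

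Markers of some other blood cells were also higher in Fgf1 null HFD liver. Of 2 measured eosinophil and basophil genes 2 were called higher than in wild-type HFD, Prg2 being at least 2.49-fold higher. Platelet genes were called higher in 2 of 4 measured, with Pf4 at least 2.91-fold higher. Both eosinophil and basophil genes and most measured platelet genes, Pf4 among them, passed the liver detection filter only through Fgf1 null HFD. Nothing is therefore read from their direction or from these counts. Erythroid genes were called higher in 2 of 8, and the haemoglobin gene Hba-a1 was at 0.60 ± 0.13, not called. The summed level of 14 platelet probes was 823 to 881 in Fgf1 null HFD and 462 to 551 in the other livers, and that of 20 erythroid probes 21119 to 23022 against 11645 to 15908. Lymphocyte genes were called in 0 of 3 measured (median 0.24) and mast cell genes in 0 of 2 (median 0.37) by limma. Their sums in Fgf1 null HFD, 1031 to 1126 over 17 lymphocyte probes and 912 to 954 over 13 mast cell probes, lay within the range of the other livers. These sums are mostly background, as few of the probes were detected. In Fgf1 null HFD 3 to 6 lymphocyte probes were detected, against 1 to 3 in the other livers, and 2 to 4 mast cell probes, against 2 to 3.

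Macrophage genes were split. Of 9 measured, 2 were higher and 3 lower, with Lgals3 at 1.94 ± 0.17 and Cd163, a scavenger receptor, at least 11.8-fold lower. The Kupffer cell gene Clec4f was at -0.12 ± 0.16. The summed level of 18 macrophage probes was 7111 to 7593 in Fgf1 null HFD, 6577 to 7131 in wild-type HFD and 3977 to 4692 on chow. Of the adipocyte list 2 of 4 measured genes were called higher (median 0.85), the lipid droplet gene Cidec by 5.07 ± 0.28 and Pparg by 1.97 ± 0.12. The 12 probes of that list summed to 3046 to 3140 in Fgf1 null HFD against 689 to 1466 in the other livers. Adipoq and some other genes of the list were detected on neither Fgf1 null HFD liver array, so these values do not show adipocytes there. S phase and mitosis genes were called higher in 3 of 8 (median 0.87), among them the replication factor gene Mcm5 at 1.81 ± 0.19, and their 30 probes summed to 3132 to 3220 against 1376 to 2051. The part of these cells or of cycling cells in the members' differences was not tested.

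The genes whose liver pattern came nearest to that of S100a8 were found by the root mean square difference of the 4 centred group means. Among 8202 other named genes the 10 nearest were Gsta1 (0.35), Sdcbp2, Ccl4 (0.56), Ly6d, Ubd, Ccl5 (0.59), H2-Aa, Lyz2, Lyz1 and Cd74 (0.65). Ccl4 and Ccl5 are chemokines, and H2-Aa and Cd74 serve antigen presentation by MHC class II. On the same measure S100a9 stood at 0.32, Ltf at 0.45, Ngp at 1.00 and Prtn3, the farthest member, at 1.72.

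In eWAT the members split into different patterns. Ngp and Camp were not measured, being detected on 1 and 0 of 8 arrays with raw values of 104.5 to 134 and 98.0 to 125. Of the 7 members that were, S100a8 and Prtn3 were detected in all 4 groups and Mpo on both arrays of Fgf1 null chow only. S100a8 read 450.0 and 436 in wild-type chow, 2470.1 and 2033 in wild-type HFD, 3329 and 2893 in Fgf1 null chow, and 444 and 429 for Fgf1 null HFD. The wild-type HFD and Fgf1 null chow samples were thus high and the other samples low, with no overlap. S100a9 was highest in Fgf1 null chow, at 280 and 225, between 145 and 169 in both HFD samples, and not detected in wild-type chow.

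The diet effect on S100a8 in eWAT ran in opposite directions, up by 2.91 ± 0.13 in wild-type and lower by -2.68 ± 0.13 in Fgf1 null, with an interaction of -5.59 ± 0.19. Interaction calls in eWAT fell on 2 members with a positive and 2 with a negative value, beside 19.3% and 20.2% of tested genes. Between genotypes Fgf1 null was higher on chow by 3.30 ± 0.13 and lower on HFD by -2.30 ± 0.13. On chow the Fgf1 null level of S100a9 was at least 4.42-fold above wild-type. On HFD it did not differ beyond the array spread (0.14 ± 0.22). Its fitted interaction, with wild-type chow not detected, was -2.21 ± 0.31, or -0.95 and not called without background correction. The samples with high S100a8 were also high in macrophage genes: Adgre1, the F4/80 antigen of macrophages, read 3959 and 4470 in Fgf1 null chow, 1651 and 1318 in wild-type HFD, 799 and 982 in Fgf1 null HFD and 376 and 412 in wild-type chow. The summed level of 18 macrophage probes was 50304 to 52077, 29642 to 34523, 19229 to 20113 and 10862 to 11585 in the same order. Erythroid genes were likewise higher in the samples with high S100a8, their 20 probes summing to 54534 to 57555 in Fgf1 null chow, 55996 to 60488 in wild-type HFD, 39121 to 40557 in Fgf1 null HFD and 16954 to 19461 in wild-type chow.

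Wild-type HFD eWAT also stood apart in liver genes. Hepatocyte genes were called higher there than in wild-type chow in 9 of 10 measured (median 6.495) and acute phase genes in 12 of 13 (median 3.85), with 0 lower in either list. The plasma haem-binding protein gene Hpx was higher by 7.31 ± 0.16. The 16 hepatocyte probes summed to 200940 to 204772 in wild-type HFD, 85993 to 86126 in Fgf1 null HFD, 45068 to 46651 in wild-type chow and 23223 to 26130 in Fgf1 null chow. Against wild-type HFD, Fgf1 null HFD had 8 of 10 hepatocyte genes lower (median -5.93) and 10 of 13 acute phase genes lower (median -2.35). The 12 adipocyte probes summed to 112645 to 118893 in wild-type HFD and 35880 to 36272 in wild-type chow. The part of these lists and of the macrophage and erythroid genes in the members' eWAT differences was not tested.

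The dimmer members varied less in eWAT. Elane read 144 and 127 in wild-type chow, 172 and 153 in wild-type HFD, 158 and 129 in Fgf1 null chow, and 184 and 178 for Fgf1 null HFD. Both HFD samples had a higher fitted Elane level than the chow sample of the same genotype, by 1.01 ± 0.23 in wild-type and 1.27 ± 0.23 in Fgf1 null. Retnlg read 111.5 and 107 in wild-type chow, where it was not detected, and 135 to 165 in the other groups. Mpo read 140 and 133 in Fgf1 null chow, 128 and 142 in wild-type chow, 122 and 128 in wild-type HFD, and 90.8 and 92.2 in Fgf1 null HFD. Fgf1 null HFD was the lowest eWAT sample for Mpo and the highest for Elane.

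Counts of called members in eWAT stand beside high shares of all genes. In wild-type on HFD 5 of 7 members were called higher and 1 lower, with 16.6% and 16.7% of 11935 tested genes. In Fgf1 null on HFD 3 were higher and 2 lower (4.18% and 6.02%). Fgf1 null against wild-type gave 3 higher and 1 lower on chow (13.7% and 13.6%) and 2 higher and 1 lower on HFD (5.27% and 6.01%). Several of these calls lay near 2-fold: in the wild-type diet comparison S100a9 (1.14 ± 0.22), Elane (1.01 ± 0.23), Prtn3 (1.07 ± 0.14) and Retnlg (1.29 ± 0.23) lost them when the 16 arrays were normalized together, at 0.84, 0.75, 0.88 and 0.96. S100a9 and Retnlg were not detected in wild-type chow, and their bounds, at least 1.91-fold and 1.73-fold, do not reach 2-fold. Leaving out the first wild-type HFD array ended the S100a9 (0.94) and Elane (0.90) calls, and leaving out the second wild-type chow array those of Elane (0.85) and Prtn3 (0.93). On chow the Fgf1 null level of Retnlg was at least 1.43-fold above wild-type, and the call of its fitted value (1.02 ± 0.23) was lost without the second Fgf1 null array (0.75) or without either wild-type array (0.95 and 0.99), while Prtn3 (0.92 ± 0.14) gained one, at 1.05, without the second Fgf1 null or first wild-type array. In Fgf1 null on HFD, S100a9 (-1.07 ± 0.22) lost its call without the first chow (-0.85) or second HFD array (-0.84), and Elane (1.27 ± 0.23) without the second chow array (0.93). Mpo, not detected in Fgf1 null HFD, had a fitted -0.97 ± 0.18 there, with a bound of only at least 1.02-fold. It passed the eWAT detection filter through Fgf1 null chow alone, so its direction was set. Without the second chow (-1.02) or first HFD array (-1.03) the fitted value of Mpo was called.

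**Figure D3:**
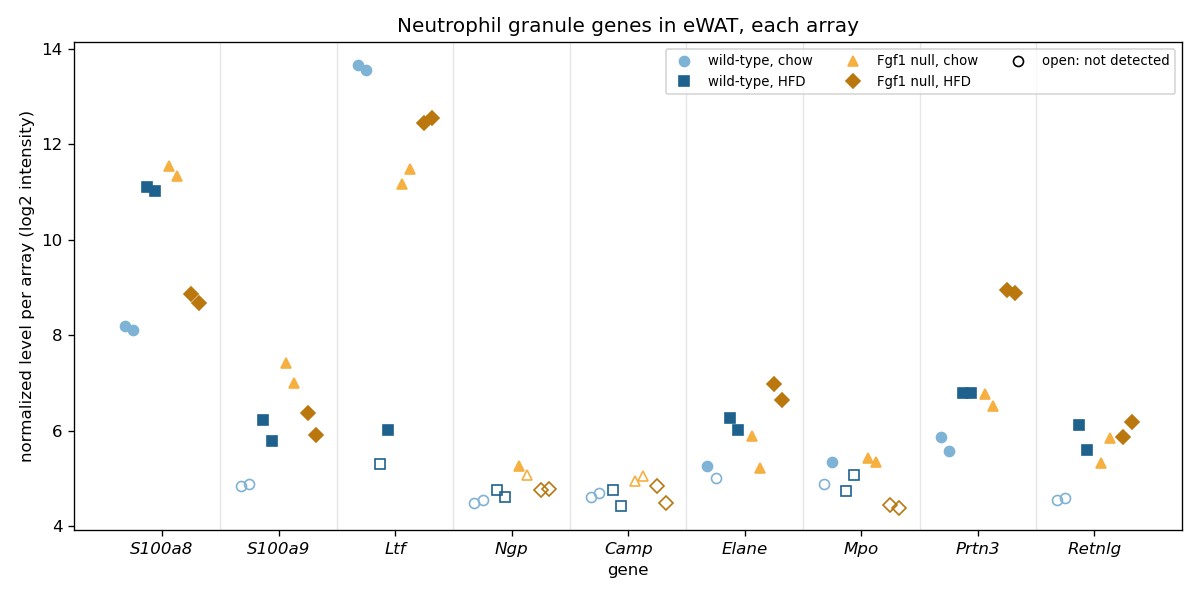
Normalized level of each member (log2 intensity, vertical axis) on every eWAT array, by gene and group; open symbols were not detected. S100a8 is high in wild-type HFD and Fgf1 null chow, Ltf is near background in wild-type HFD alone, and Prtn3 is highest in Fgf1 null HFD.

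Ltf is also a secretory gene of the epididymis, and in eWAT it was read beside epididymal genes. Its raw intensity was 12209 and 11720 in wild-type chow, 2582 and 3180 in Fgf1 null chow, 4970 and 5763 for Fgf1 null HFD, and 139 and 153 in wild-type HFD, where 1 of 2 arrays detected it. Ltf was lower on HFD by -7.95 ± 0.23 in wild-type and higher by 1.18 ± 0.23 in Fgf1 null. Between genotypes it was lower in Fgf1 null on chow by -2.30 ± 0.23 and higher on HFD by 6.84 ± 0.23, and its interaction was 9.13 ± 0.32. The second Ltf probe disagreed, being detected on 1 of 16 arrays and reading at most 141.

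Defb22, an epididymal defensin gene, read 38761 and 46584 in wild-type chow, 17657 and 19771 in Fgf1 null chow, 12829 and 11786 for Fgf1 null HFD, and 209 and 191 in wild-type HFD. Wild-type HFD was thus the low sample for both Defb22 and Ltf. The summed level of 24 epididymis and testis probes was 204117 to 211825, 56973 to 57808, 37819 to 39069 and 1533 to 1564 in the same order. Of 14 measured genes of that list 11 were called lower and 0 higher on HFD in wild-type, and 8 higher and 0 lower in Fgf1 null against wild-type on HFD. In Fgf1 null on HFD, where Ltf was called higher, 0 of the 14 were higher and 1 lower. In the 4 livers the list summed to 779 to 979. The part of epididymal tissue in the Ltf values was not tested.

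Prtn3 in eWAT was highest in Fgf1 null HFD, at 470 and 485, against 155 to 214 in the other groups. It was higher there than in Fgf1 null chow by 2.27 ± 0.14 and than in wild-type HFD by 2.12 ± 0.14, with an interaction of 1.20 ± 0.20. The same sample was highest in exocrine pancreas genes, whose 17 probes summed to 707700 to 715776, against 91808 to 93290 in wild-type HFD and 890 to 1731 on chow. In liver, where Prtn3 was high in both HFD samples, these probes summed to 2271 and 3982 in wild-type HFD, 1530 to 1554 in Fgf1 null HFD and 1433 to 1618 on chow. The part of pancreatic RNA in the Prtn3 values, or in those of Elane, which was also highest in Fgf1 null HFD eWAT, was not tested.

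**Figure D4:**
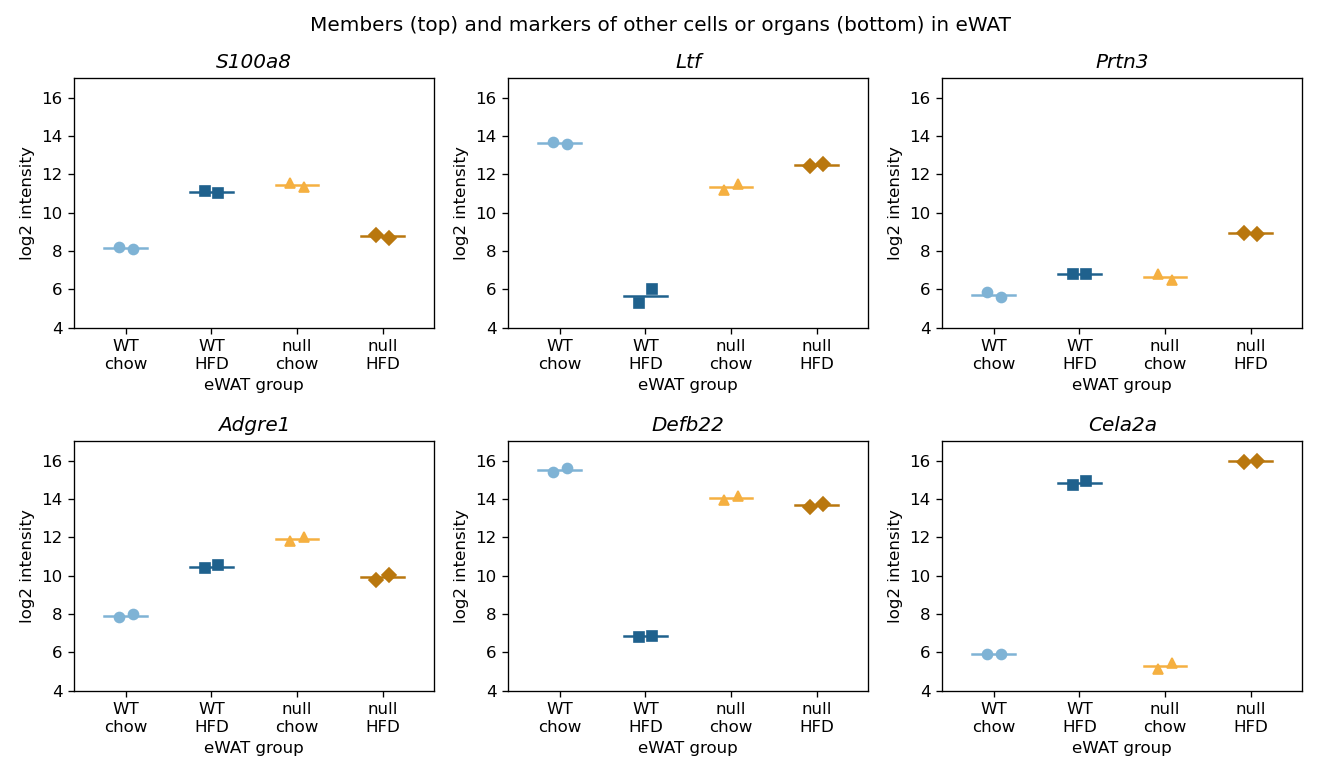
Normalized log2 intensity on both arrays of each eWAT group for S100a8, Ltf and Prtn3 (top) and for Adgre1, Defb22 and Cela2a, a macrophage, an epididymal and a pancreatic gene (bottom); lines are group means and detection is not marked. S100a8 and Adgre1 are lowest in wild-type chow, Ltf and Defb22 in wild-type HFD, and Prtn3 and Cela2a are highest in Fgf1 null HFD.

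Other neutrophil genes in eWAT differed between the genotypes on chow. There, 10 of 15 measured granule and cytosol genes were called higher in Fgf1 null and 2 lower (median 1.90, all genes 0.07), and 11 of 17 surface receptors higher and 0 lower (median 1.97). Anxa1, which encodes the phospholipid-binding protein annexin A1, was higher by 3.46 ± 0.17, Lyz2 by 3.40 ± 0.13 and the lectin receptor gene Clec4d by 3.48 ± 0.18. The rise was not particular to neutrophil genes. Adipocyte genes were called higher in 6 of 9 (median 1.16), erythroid genes in 5 of 9 (1.27) and macrophage genes in 5 of 11 (0.97), with 0 lower. Mast cell genes gave 4 higher and 1 lower of 7 (2.37), and epididymis and testis genes 1 higher and 8 lower of 14 (-1.30). The part of tissue make-up in these differences was not tested. On HFD, where S100a8 was lower in Fgf1 null, the granule genes gave 1 higher and 1 lower (median -0.13) and the receptors 0 higher and 2 lower (median -0.07). The receptors' 29 probes summed to 3202 to 3296 in wild-type HFD and 3029 to 3284 in Fgf1 null HFD, which overlap. Csf3r was called in 0 of the 4 eWAT comparisons, from 0.13 ± 0.36 to 0.57 ± 0.36 by limma. The genes nearest to S100a8 in eWAT among 10988 were F7 (0.16), C130026I21Rik, Il1rn, Tmem45b, Cxcl1 (0.26), Aplnr, Col15a1, Ccl7, Cdsn and Dgat2 (0.30). They include the chemokine genes Cxcl1 and Ccl7. S100a9 stood at 0.93 and Ltf at 4.17.

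In the additive fit to the 4 eWAT samples limma called 0 of 11935 genes for diet or genotype. At an unadjusted p under 0.05 it gave 197 genes for diet (1.65%) and 73 for genotype (0.612%). Prtn3 had the lowest unadjusted p among the members, at 0.043 for diet and 0.055 for genotype.

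Across all 8 groups, on a scale from normalizing the 16 arrays together, S100a8 was highest in Fgf1 null chow eWAT (11.11 ± 0.16, SD, n = 2), then Fgf1 null HFD liver (10.85 ± 0.07) and wild-type HFD eWAT (10.70 ± 0.08). Fgf1 null chow liver (8.41 ± 0.13) and Fgf1 null HFD eWAT (8.26 ± 0.14) overlapped, as did wild-type chow liver (7.63 ± 0.21) and wild-type chow eWAT (7.62 ± 0.07). Wild-type HFD liver was lowest (7.18 ± 0.25). S100a9, Ngp, Camp, Elane and Mpo were highest in Fgf1 null HFD liver, with no overlap with the next group. Retnlg was highest there too but overlapped with Fgf1 null chow liver. Prtn3 in wild-type HFD liver (8.43 ± 0.18) overlapped with Fgf1 null HFD eWAT (8.43 ± 0.05). The 3 highest Ltf levels were all in eWAT, from 13.51 ± 0.08 in wild-type chow to 10.98 ± 0.24 in Fgf1 null chow, and Fgf1 null HFD liver followed at 8.47 ± 0.20. Order between the tissues depends on this joint scale. Its lowest detected level was 5.65 to 5.99 on liver arrays and 4.92 to 5.17 on eWAT arrays. In raw intensity Elane was higher in Fgf1 null HFD eWAT (184 and 178) than in Fgf1 null HFD liver (171 and 170). Raw S100a8 was higher in wild-type HFD eWAT (2470 and 2033) than in Fgf1 null HFD liver (1394 and 1694). Raw Retnlg was also higher in wild-type HFD eWAT (165 and 141) than in that liver (131 and 138). Prtn3 read 470 and 485 in Fgf1 null HFD eWAT against 316 and 295 in wild-type HFD liver. For Mpo, Fgf1 null HFD liver (142 and 144) and wild-type chow eWAT (128 and 142) overlapped in raw intensity.

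Fgf1, the targeted gene, was read as a check of the labels. It was lower in the livers labelled Fgf1 null, by -0.95 ± 0.13 on chow (not called) and -1.43 ± 0.13 on HFD. In eWAT it was lower on HFD by -1.50 ± 0.17, but on chow the sample labelled Fgf1 null was 0.67 ± 0.17 above wild-type, not called, which goes against its label. Fgf1 was detected on both arrays of every group, at 398 to 1353 in the samples labelled Fgf1 null and 789.7 to 1847 in wild-type. Whether the probe lies in the deleted part is not given. Per array 10626 to 11650 probes were detected in liver and 13570 to 15399 in eWAT, and the 2 arrays of a group correlated at r = 0.988 to 0.995 across probes.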

How the data were processed

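Total RNA of eWAT and liver was hybridized to 1-colour Illumina arrays and processed in GenomeStudio per the submitters' processing notes, with the version not given in the sources used here. The deposited non-normalized table holds, per the file headers, each probe's linear intensity on an array and its detection p-value. A second deposited table holds intensity that the authors normalized by a method not stated, and was used as an alternative.

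In R 4.3.3 with limma 3.58.1, neqc was run on the 8 arrays of each tissue, with background estimated through the detection p-values, an offset of 16, quantile normalization and log2 transformation. A small offset spreads out dim probes, which most members are. A probe was kept if any group had it detected (p under 0.05) on its 2 arrays, and the brightest probe stood for its gene, leaving 8894 genes and unnamed probes in liver and 11935 in eWAT. A mean per group was fitted to 8 arrays with 4 residual degrees of freedom and p-values were Benjamini-Hochberg adjusted over all of them. Where no array of the lower group detected the probe, the fold is a bound against the lowest detected signal of each of its arrays or the probe's own. Arrays limit the precision: 2 per group share 1 RNA sample, so p-values measure the spread between arrays only, which is technical. The fits were tested on simulated data that held the spread between arrays only. That test cannot speak to the spread between RNA samples or mice. Names came from the platform annotation, and 23962 of 23978 named probes matched RefSeq by gene identifier.

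Named genes are the members, up to 4 of the largest called genes of a list, set marker genes, the 10 genes nearest to S100a8 in each tissue, and Fgf1. Mmp8, Fcnb and Padi4 were named after their values were seen. The members and lists were chosen with earlier results of these data known. Alternatives changed the background correction, offset, scaling, detection filter, probe choice, fold minimum and arrays used.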

Additional observations from a re-analysis of the deposited data

Results flagged for a closer look

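A difference in the HFD effect between wild-type and Fgf1 null RNA samples was called, by the interaction in limma over arrays, for 6 members in liver and 4 in eWAT. In liver the difference of the diet effects, Fgf1 null minus wild-type on the log2 scale, was 3.23 for S100a8, 2.90 for S100a9, 2.85 for Ltf, 1.32 for Ngp, 1.33 for Camp and 1.16 for Elane. In eWAT it was -5.59 for S100a8, -2.21 for S100a9, 9.13 for Ltf and 1.20 for Prtn3. In liver Ltf, Ngp and Camp passed the detection filter only through Fgf1 null HFD and were at background in the other 3 groups, so their values are fitted descriptions. In eWAT S100a9 was not detected in wild-type chow, and 1 of 2 wild-type HFD arrays detected Ltf. S100a8 and S100a9 had interactions of opposite sign in the 2 tissues. The Elane value is the least steady, losing its call under the settings given for it in the text, and each group is 1 RNA sample. Groups of 2 arrays are too small for a check of outlying samples.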

How the results depend on the processing

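The calls of S100a8, S100a9 and Ltf in liver (Fgf1 null against wild-type on HFD, HFD in Fgf1 null, and the interaction) and of S100a8 and Ltf in eWAT held under every alternative run. Counts of called members depended on how dim probes were treated. Without background correction and with an offset of 50, 4 and 4 members in place of 7 were called for HFD in Fgf1 null liver, 3 and 3 in place of 6 for genotype on HFD, and 3 and 3 in place of 6 for the interaction. In eWAT these settings called 2 and 2 in place of 6 for HFD in wild-type and 3 and 3 in place of 5 for HFD in Fgf1 null. The authors' normalized table called 2, 3 and 2 members in eWAT for HFD in wild-type, HFD in Fgf1 null and genotype on chow (4), and normalizing the 16 arrays together called 2 for HFD in wild-type. A 1.5-fold minimum called 1 in place of 0 for genotype on chow in liver. Leaving out each array in turn gave counts of 1 to 1, 7 to 8, 0 to 1, 5 to 7 and 5 to 6 in liver, and 4 to 6, 4 to 6, 3 to 4, 3 to 3 and 4 to 5 in eWAT, for HFD in wild-type, HFD in Fgf1 null, genotype on chow, genotype on HFD and the interaction. The cause of these changes was not tested.

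Differences that changed sign were near 0 and not called. Camp in wild-type liver between diets was -0.0095 without background correction, -0.0025 in the authors' table and -0.064 with median scaling. The Prtn3 interaction in liver was 0.015 with 16 arrays normalized together, and Mpo in wild-type eWAT between diets was 0.096 with median scaling. With 1 array left out, the wild-type liver diet difference ran from -0.30 to 0.039 for S100a9, -0.0053 to 0.16 for Ltf and -0.10 to 0.11 for Camp. Retnlg between diets in Fgf1 null liver ran from -0.071 to 0.20. In liver on chow, Mpo ran from -0.023 to 0.29 and Prtn3 from -0.49 to 0.046 between genotypes, and the Prtn3 interaction from -0.44 to 0.095. In eWAT, Mpo between wild-type diets ran from -0.41 to 0.024, the Elane interaction from -0.079 to 0.59, and genotype on HFD from -0.090 to 0.38 for S100a9 and -0.099 to 0.43 for Retnlg.

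Over all genes in liver, in the same order of comparisons, 509, 763, 159, 441 and 703 were called. There were 248, 332, 68, 194 and 346 without background correction, 239, 368, 66, 201 and 383 in the authors' table, and 1389, 1773, 458, 1092 and 1182 at 1.5-fold. An offset of 50 gave 319, 472, 95 and 274 in the first 4, and without the second wild-type chow array genotype on chow gave 248. In eWAT 3969, 1217, 3263, 1346 and 4713 became 2429, 620, 1931, 740 and 3068 without background correction, 2331, 574, 1842, 694 and 2980 in the authors' table, and, in the first 4, 6131, 2863, 5449 and 2818 at 1.5-fold. Median scaling moved the median of all genes from 0.0036 to 0.26 for HFD in wild-type liver and from 0.11 to 0.30 in eWAT, and the liver split of higher and lower calls from 288 and 221 to 594 and 121. The split became 714 and 170 for HFD in Fgf1 null liver (523 and 240 before), 119 and 47 for genotype on chow in liver (89 and 70), 382 and 907 for HFD in Fgf1 null eWAT (499 and 718), and 1959 and 3289 for the eWAT interaction (2299 and 2414). Same-numbered arrays share only a number, as their deviations correlated at -0.07 to 0.05 over 6 pairs of groups in each tissue. With the replicate number as a block the counts of called members did not change (6 for genotype on HFD in liver, with 438 of all genes). Arrays with 2 values per group and members near background limit what can be told.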
